A study of Mus musculus with 16 samples.

Results

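Serpina6 encodes corticosteroid-binding globulin, the plasma protein that carries glucocorticoids, and it is described here with 8 genes that act on the same hormones inside cells. These are Hsd11b1 and Hsd11b2, enzymes that interconvert active and inactive glucocorticoid, the receptor genes Nr3c1 and Nr3c2, and the glucocorticoid-induced genes Fkbp5, Tsc22d3, Per1 and Sgk1. The 9 genes were chosen by symbol, each through its transcript cluster (the array's unit for a gene) with the highest mean over 8 arrays, out of 18311 genes with a cluster of 1 symbol. They held 10 transcript clusters of 93623 and 124 probe sets (the array's unit for an exon or part of one) of 375483. The set was put together with earlier results of these data in view, in which Serpina6 was far lower and Hsd11b2 higher in the mutants. These 2 genes are therefore described without a test, and tests are given for the remaining 7.

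Glomeruli, the capillary filters of the kidney, were isolated from mouse embryos at E18.5 after perfusion with magnetic beads, and their RNA was hybridised to Affymetrix exon arrays. The groups were 4 wild-type embryos and 4 embryos labelled wt1(+KTS) mutant, titled Frasier after the human syndrome, all on a mixed C57Bl6 and DBA2 background and without treatment. Wt1 encodes a zinc finger protein of podocytes, and in Frasier syndrome its splice form with the amino acids KTS is reduced; the labels give neither the zygosity of the mutants nor the litter or sex of the embryos. Each array was deposited as a gene-level and an exon-level table of log2 signal, so n was 4 per genotype.

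Glucocorticoids circulate mostly bound to corticosteroid-binding globulin, which is made mainly by the liver, and the unbound hormone enters cells. There Hsd11b1 regenerates active hormone and Hsd11b2 inactivates it, which in the distal nephron keeps glucocorticoid from occupying the mineralocorticoid receptor. The glucocorticoid receptor, freed from its chaperones by hormone, binds DNA at palindromic elements and switches on genes such as Fkbp5, Tsc22d3, Per1 and Sgk1.

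Several facts of the arrays touch the results. Wild-type replicate 4 correlated least with the others, at 0.869 to 0.918 over all clusters, and the differences of Serpina6 and Hsd11b2 are given with and without it. Among the other members, Nr3c2 turned from 0.0093 to −0.012 without it, Nr3c1 moved to −0.053 and Fkbp5 to −0.24, and none was called. The sample codes end in a letter that is not explained, and wild-type replicate 4 and mutant replicate 1 each had a letter of their own. No letter occurred in both genotypes, so genotype and what the letter marks cannot be told apart. Of the podocyte markers 11 of 14 were measured, and all 11 lay above the median signal of the table. Proximal tubule markers (12 of 12) and markers of distal tubule and collecting duct (16 of 16) lay above it too. That median is taken over 93623 clusters, 71567 of them without a symbol, and all 13 measured chaperones of the receptor also lay above it. Lying above it therefore does not show which cells the preparations held.

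Serpina6 (transcript cluster 6803219, chromosome 12) was high in every wild-type array and low in every mutant array. The wild-type replicates 1 to 4 stood at 10.82, 11.39, 11.72 and 10.83 on the log2 scale. The mutant replicates 1 to 4 stood at 8.36, 6.74, 6.01 and 6.71. Mutant replicate 1 lay above the other mutants and still 2.47 below the lowest wild-type array. The means were 11.19 ± 0.44 (SD, n = 4) and 6.95 ± 0.99 (SD, n = 4), and the difference, −4.24 ± 0.44 (SE), is 18.8-fold on the linear scale. It was −4.36 without wild-type replicate 4, −4.70 without mutant replicate 1 and −3.92 without mutant replicate 3, the lowest mutant array.

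**Figure D1:**
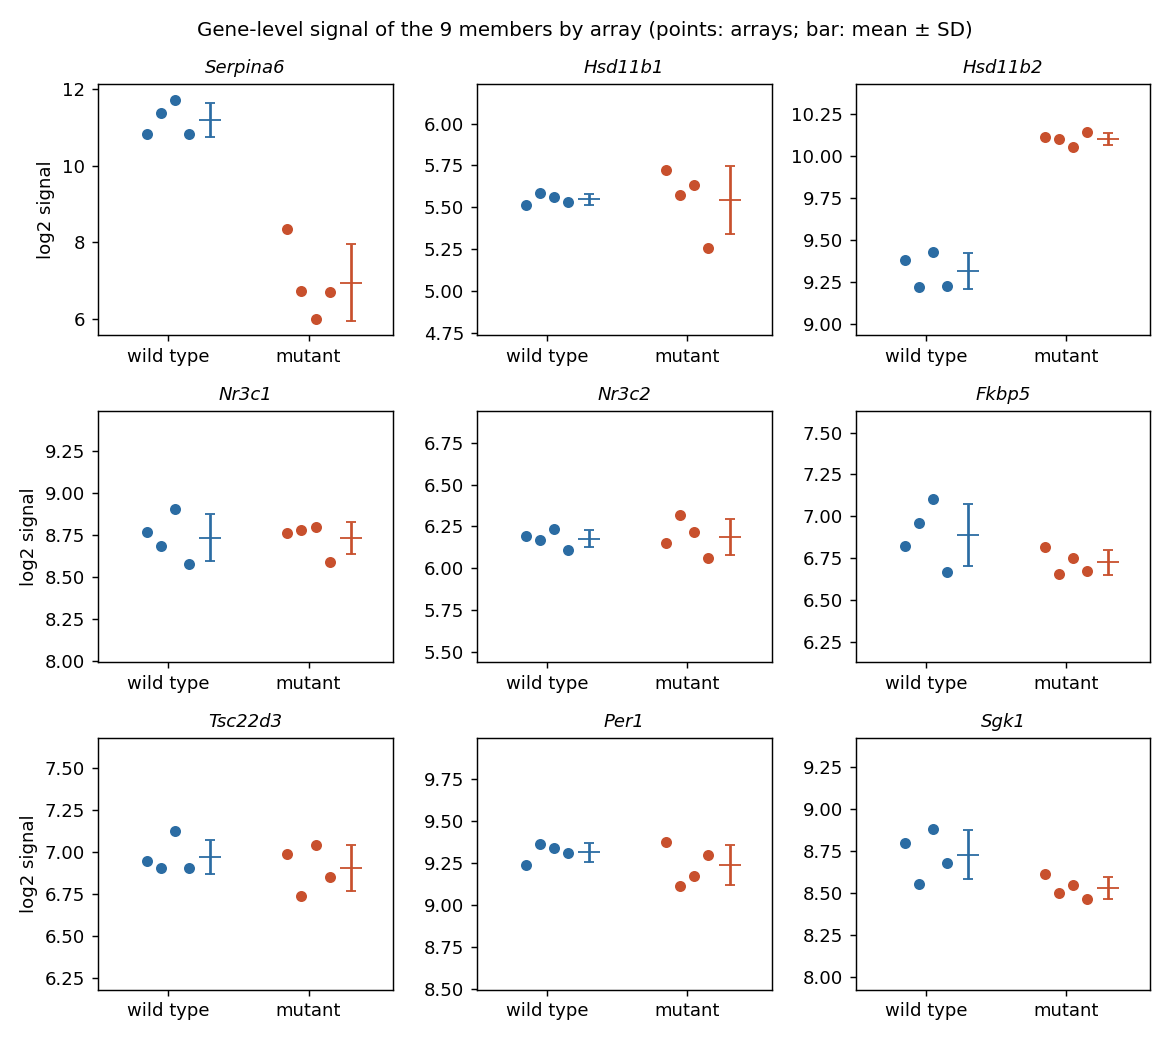
Log2 signal of the 9 genes on each of the 8 arrays, with the mean and SD of each genotype as a bar beside its points; each panel has its own axis. Serpina6 ran from 10.82 to 11.72 in the wild type and from 6.01 to 8.36 in the mutants, Hsd11b2 was higher in all 4 mutants, and the genotypes overlapped for the other 7 genes.

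All 8 Serpina6 probe sets were lower in the mutants, and none had overlapping genotypes, as was so for 13.0% of all probe sets; the gene was chosen for this difference, so nothing is read from that share. Their differences ran from −5.68 to −3.25, with a median of −4.80. The brightest in the wild type, probe set 4715783, had signals of 12.82, 13.34, 13.59 and 12.95 in wild-type replicates 1 to 4 and 10.48, 8.57, 7.94 and 8.20 in mutant replicates 1 to 4. Probe set 5607425, the dimmest in the wild type, stood at 9.15 ± 0.65 in the wild type and 5.90 ± 0.70 in the mutants (SD, n = 4). Probe set 4695676 stood at 10.77 ± 0.58 and 5.09 ± 0.87. Both mutant means lay below the medians of the exon-level arrays, 6.76 to 6.88, where signals near background understate a difference, so these sizes do not rank the probe sets.

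The embryos at the ends of the range were mostly the same from probe set to probe set. Mutant replicate 1 was the highest mutant in 8 of 8 Serpina6 probe sets and mutant replicate 3 the lowest in 7 of 8. Wild-type replicate 3 was the highest wild-type array in 8 of 8. These probe sets report the same transcript on the same arrays and are not replicates. The deposited gene-level value of Serpina6 lay 0.10 to 0.78 below the mean of its 8 named probe sets, and averaging those probe sets gave −4.73 in place of −4.24.

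**Figure D2:**
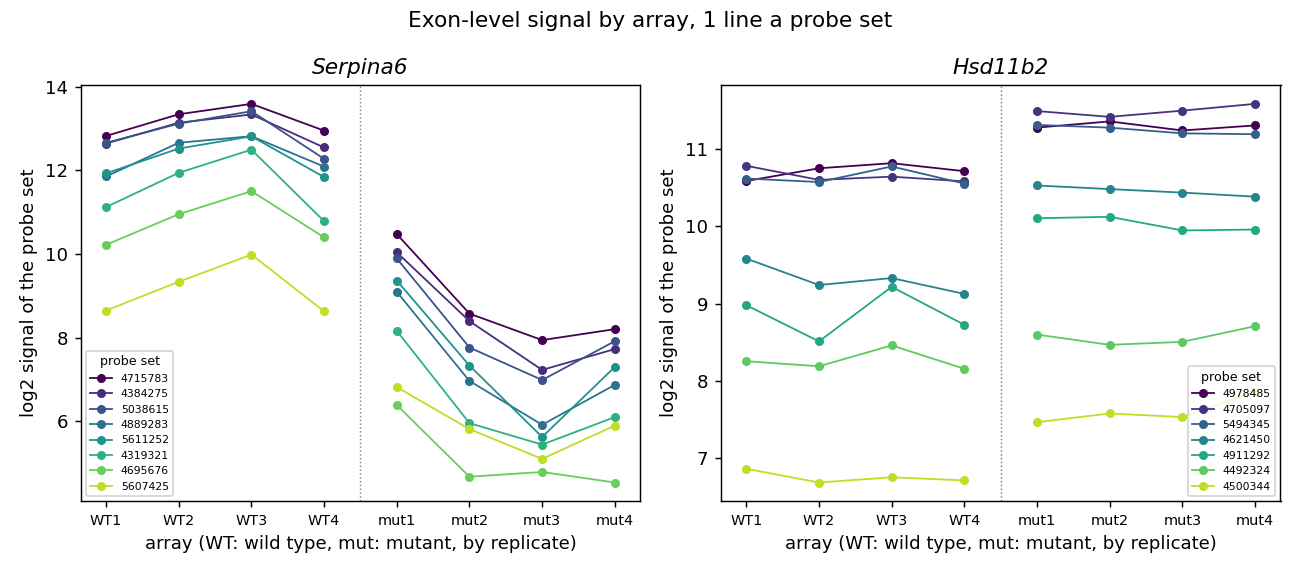
Exon-level log2 signal of the 8 Serpina6 probe sets (left) and the 7 Hsd11b2 probe sets (right) on each array, 1 line per probe set, broken between the wild type and the mutants. All Serpina6 lines are lower in the mutants, with differences of −5.68 to −3.25, and mutant replicate 1 is the highest mutant on each; all Hsd11b2 lines are higher in the mutants, by 0.31 to 1.18.

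The genes next to Serpina6 on chromosome 12, many of them serpins too, differed far less, though several of them were dim. Among the 6 nearest measured genes on each side, in the order of the RefSeq gene table, 0 of 12 were called by limma. Over all genes 0.846% were called higher and 0.601% lower, and 16.6% reached an unadjusted p under 0.05. Of the 12, 1 reached an unadjusted p under 0.05. That one was Serpina10, which encodes an inhibitor of coagulation proteases and lies next to Serpina6. It differed by −0.88 ± 0.18 (SE, n = 4 per genotype, adjusted p = 0.0704), from 6.14 ± 0.34 to 5.26 ± 0.20 (SD). The other neighbours lay between −0.29 (Ifi27l2a) and 0.18 (Serpina9). Serpina12, Ifi27l2a, Serpina1f, Serpina10 and Ifi27l2b had means of 5.06 to 5.70. These lie below the table's median of 6.04, where the signal shows differences poorly. Of the serpin A family 12 of 25 genes were measured, and 7 of the 12 lay below that median. Besides Serpina6 limma called none of them, with Serpina10 at an unadjusted p under 0.05.

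Likeness of other genes to Serpina6 was measured as the root mean square distance between gene-centred log2 profiles over the 8 arrays, as a description without a test, since the genotypes separate the arrays. The nearest clusters with 1 symbol were Slc22a30 (distance 1.09), an organic ion transporter, Cd59b (1.24), a complement inhibitor, and Kap (1.27), the kidney androgen-regulated protein of the proximal tubule. Tdrd5 (1.31), Thsd7a (1.32), Nell2 (1.32), Acmsd (1.33) and C430014B12Rik (1.38) came next. For scale, Serpina6 itself deviated from its own mean by 2.22 on the same measure. Among clusters without a single symbol, 25 were nearer than the last of these 8.

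In bulk RNA, fewer cells of a type and less RNA per cell cannot be told apart, so marker lists of other cell types are given beside Serpina6. The mean log2 signal of the 12 proximal tubule markers was 8.92, 9.36, 9.36 and 9.11 in wild-type replicates 1 to 4. It was 8.55, 8.53, 8.25 and 8.08 in the mutants. The genotypes did not overlap, and the median difference of the list was −0.62, against 0.032 for all 18311 genes. Limma called 5 of these markers lower and 0 higher, where 0.601% and 0.846% of all genes were called. The 5 were Dpep1, Slc13a3, Pdzk1, Slc34a1 and Slc5a2. With each array left out in turn, the call of Dpep1, a peptidase of the brush border, was kept in 8 of 8 runs, that of Slc13a3 in 5, that of Pdzk1 in 2 and those of Slc34a1 and Slc5a2, transporters of phosphate and glucose, in 1 each. With the sample-code letter as a random block, Dpep1 stayed called. The others did not, with adjusted p of 0.0558 for Slc13a3, 0.0826 for Pdzk1, 0.115 for Slc34a1 and 0.143 for Slc5a2. No letter occurs in both genotypes, so this block cannot separate the letter from the genotype. The part of tubule cells in the Serpina6 difference was not tested.

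The podocyte markers were lower as well, with a list mean of 8.65 to 8.84 in the wild type and 8.10 to 8.35 in the mutants. Glomerular endothelial markers stood at 9.34 to 9.51 and 9.02 to 9.09, and nephron progenitor markers, in the other direction, at 7.50 to 7.63 and 8.13 to 8.29. Limma called 3 of 11 podocyte and 1 of 10 endothelial markers lower, where 0.601% of all genes were, and 5 of 9 progenitor markers higher, where 0.846% were. With the letter block the podocyte marker Cdkn1c (adjusted p = 0.101) and the progenitor markers Uncx (0.0861) and Crym (0.0654) were no longer called. With each array left out in turn, Cdkn1c and Uncx were called in 1 of 8 runs each. Of the 10 leukocyte markers all were lower, 0 were called and 3 reached an unadjusted p under 0.05, as 16.6% of all genes did. Their list mean was 6.89 to 7.12 in the wild type and 6.68 to 6.82 in the mutants, without overlap. Of the 8 mesangial markers 3 were higher and 5 lower, 0 were called and 4 reached an unadjusted p under 0.05, and the list means overlapped, at 8.53 to 8.73 and 8.40 to 8.61. The part of these cells in the difference was not tested.

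Liver RNA was looked for because hepatocytes are the main source of the globulin. Alb, albumin, stood at 5.14 to 5.43 in wild-type replicates 1, 3 and 4, below the table's median of 6.04, and at 7.52 in wild-type replicate 2. In the mutants it stood at 5.17 to 5.47. Serpina6 stood at 11.39 in wild-type replicate 2 and at 10.82, 11.72 and 10.83 in wild-type replicates 1, 3 and 4. The part of liver RNA in the difference was not tested. The mean of the 13 measured hepatocyte markers was 6.16 to 6.49 in the wild type and 6.09 to 6.29 in the mutants, and 7 of the 13 lay below the table's median. Limma called 1 of the 13 lower and 0 higher, where 0.601% and 0.846% of all genes were called. An unadjusted p under 0.05 was reached by 3 of the 13, and by 16.6% of all genes. The called member was Fgb, a fibrinogen chain, which fell by 1.00 ± 0.13 on the log2 scale (SE, adjusted p = 0.0117). It stayed called in all 8 runs that left out 1 array.

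Genes of the adrenal cortex, which makes the hormone, were read in the same RNA of isolated glomeruli. Of 13 measured genes of steroid synthesis and its control 0 were called by limma, and 2 reached an unadjusted p under 0.05. Over all genes 0.846% were called higher and 0.601% lower, and 16.6% reached such a p. Of the 13, 6 lay below the table's median. The list mean ran from 6.39 to 6.59 in the wild type and from 6.39 to 6.55 in the mutants. Cyp11a1 and Cyp11b1, enzymes found mainly in steroid-making cells, differed by −0.18 and −0.16. Their highest signals on any array were 6.57 and 5.79. Mc2r, the receptor of corticotropin, differed by 0.70 ± 0.16 (SE, adjusted p = 0.0902) and Fdx1, an electron carrier of mitochondrial steroid synthesis, by −0.41 ± 0.14 (adjusted p = 0.244).

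**Figure D3:**
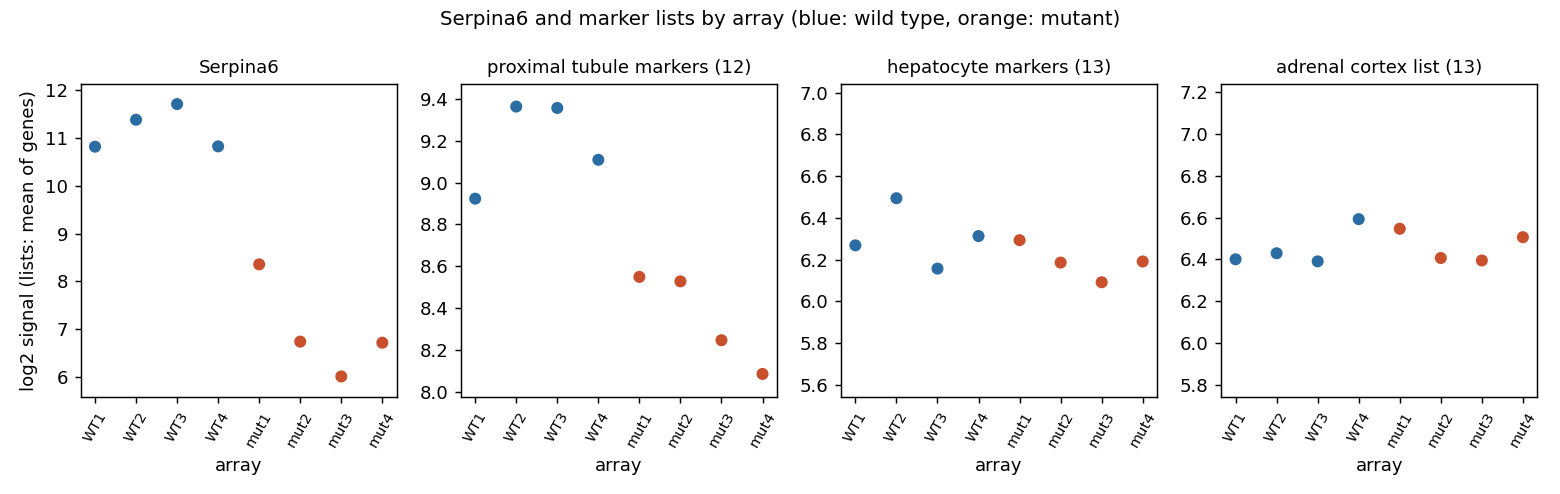
Log2 signal of Serpina6 and the mean log2 signal of 3 marker lists on each array, wild type in blue and mutants in orange; each panel has its own axis. Serpina6 and the proximal tubule markers were lower in all 4 mutants than in any wild-type array, while the hepatocyte and adrenal cortex lists overlapped between the genotypes.

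Serpina6 and other carriers of hormones and vitamins made up a list of 8 genes, of which 7 were measured, Serpina6 included. Ttr, transthyretin, which carries thyroid hormone and retinol-binding protein, differed most among them after Serpina6. It stood at 8.68, 9.89, 9.85 and 10.08 in wild-type replicates 1 to 4 and at 9.04, 8.15, 7.77 and 6.41 in mutant replicates 1 to 4. The genotypes overlapped through wild-type replicate 1 and mutant replicate 1, and the difference of −1.79 ± 0.51 (SE) had an adjusted p of 0.161. Crym, which binds thyroid hormone inside cells and is also a marker of nephron progenitors, rose by 0.79 ± 0.12 (SE, adjusted p = 0.0194). With each array left out in turn, this call was kept in 3 of 8 runs (adjusted p up to 0.0728), and it was lost with the sample-code letter as a random block (0.0654). Shbg, which carries sex steroids, and Serpina7, which carries thyroid hormone, differed by −0.14 and 0.037 (adjusted p = 0.671 and 0.934).

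Hsd11b2 (transcript cluster 6978836, chromosome 8), the enzyme that inactivates glucocorticoid, was higher in every mutant than in any wild-type array. Its wild-type replicates stood at 9.38, 9.22, 9.43 and 9.23 and its mutant replicates at 10.11, 10.10, 10.05 and 10.14. The mutants lay within 0.090 of each other. The difference was 0.79 ± 0.11 (SE), or 1.73-fold, and 0.76 without wild-type replicate 4. Serpina6 and Hsd11b2 were the members without overlap between the genotypes, 2 of 9, where 9.54% of all clusters had none; since both were chosen for their difference, the count supports nothing.

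All 7 Hsd11b2 probe sets were higher in the mutants, by 0.31 to 1.18 and with a median of 0.85. All 7 were without overlap between the genotypes, as were 13.0% of all probe sets. The gene was chosen for its difference, so nothing is read from that share. In probe set 4492324 the highest wild-type array, at 8.460, and the lowest mutant, at 8.467, nearly met. Probe set 4911292 had the largest difference of means, from 8.86 ± 0.31 to 10.04 ± 0.094 (SD, n = 4), and probe set 4492324 the smallest, from 8.26 ± 0.14 to 8.57 ± 0.11. Of the 16 markers of distal tubule and collecting duct, where this enzyme is mainly found, 0 were called by limma. Over all genes 0.846% were called higher and 0.601% lower. An unadjusted p under 0.05 was reached by 4 of the 16, and by 16.6% of all genes. The list mean of the 16 markers was 8.35 to 8.51 in the wild type and 8.13 to 8.53 in the mutants, which overlapped. The sodium channel subunit Scnn1b differed by 0.49 ± 0.13 (SE, adjusted p = 0.125) and its partner Scnn1a by −0.39 ± 0.12 (0.181). The transcription factor Tfap2b differed by 0.43 ± 0.13 (0.190). The part of these cells in the Hsd11b2 difference was not tested.

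Hsd11b1 (transcript cluster 6765325, chromosome 1), the enzyme that works in the other direction, was dim on every array. It stood at 5.51, 5.58, 5.56 and 5.53 in the wild type and at 5.72, 5.57, 5.63 and 5.26 in the mutants. The difference was −0.0029 ± 0.13 (SE), with a 95% interval from −0.28 to 0.28 (adjusted p = 0.995). Its mean lay below the median of the table, and so did those of all its 9 probe sets, where the signal shows differences poorly. H6pd, which supplies the cofactor that lets Hsd11b1 regenerate active hormone, differed by −0.50 ± 0.13 (adjusted p = 0.136).

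Besides Hsd11b2, none of the other 13 measured genes of steroid metabolism and transport was called by limma, and 3 reached an unadjusted p under 0.05. Over all genes 0.846% were called higher and 0.601% lower, and 16.6% reached such a p. Lrp2, the endocytic receptor megalin of the proximal tubule, which takes up carrier-bound steroids, differed by −0.55 ± 0.15 (SE, adjusted p = 0.133). Srd5a3, a reductase of the steroid reductase family, differed by 0.28 ± 0.12 (adjusted p = 0.345).

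The 7 members open to a test gave no call at the gene level. With 1 cluster per gene, 0 of the 7 passed limma's adjusted threshold, where 0.827% of all clusters were called. An unadjusted p under 0.05 was reached by 0 of the 7, and by 16.6% of all genes. The differences of the 7 ran from −0.20 to 0.0093, with a median of −0.065, and all 7 had overlapping genotypes. A missed threshold does not show that levels were equal, so intervals are given for each.

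Both receptor genes had nearly the same mean in the 2 genotypes. Nr3c1 (transcript cluster 6864895, chromosome 18), the glucocorticoid receptor, stood at 8.77, 8.68, 8.91 and 8.57 in the wild type and at 8.76, 8.78, 8.80 and 8.59 in the mutants. The difference was −0.00078 ± 0.12 (SE), with a 95% interval from −0.26 to 0.26 (adjusted p = 0.998). Its 14 probe sets differed by −0.17 to 0.50, and none had an unadjusted p under 0.05. Nr3c2 (transcript cluster 6977334, chromosome 8), the mineralocorticoid receptor, stood at 6.20, 6.17, 6.23 and 6.11 in the wild type and at 6.15, 6.32, 6.22 and 6.06 in the mutants. Its difference was 0.0093 ± 0.11 (SE), with a 95% interval from −0.23 to 0.25 (adjusted p = 0.978). Of its 13 probe sets 1 had an unadjusted p under 0.05, and 6 of 13 reached the median signal of their table.

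The induced genes Fkbp5, Tsc22d3 and Per1 did not pass the test either. Fkbp5 (transcript cluster 6854604, chromosome 17), a co-chaperone that lowers the receptor's affinity for hormone, stood at 6.82, 6.96, 7.10 and 6.67 in the wild type and at 6.82, 6.66, 6.75 and 6.68 in the mutants. The difference was −0.16 ± 0.12 (SE), with a 95% interval from −0.44 to 0.11 (adjusted p = 0.593). Tsc22d3, the leucine zipper protein GILZ, differed by −0.065 ± 0.12 in its brighter cluster 7019818 on the X chromosome (interval −0.33 to 0.20, adjusted p = 0.840). Its wild-type arrays stood at 6.90 to 7.12 and its mutant arrays at 6.74 to 7.04. Its dimmer cluster 6750104, which is outside the count of 7, differed by −0.47 ± 0.17 (limma unadjusted p = 0.0221, adjusted p = 0.262). Per1 (transcript cluster 6781984, chromosome 11), a clock gene that glucocorticoid induces, stood at 9.23 to 9.36 in the wild type and 9.11 to 9.37 in the mutants. Its difference was −0.073 ± 0.11 (interval −0.32 to 0.17, adjusted p = 0.804).

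Sgk1 (transcript cluster 6766455, chromosome 10), a kinase that raises sodium channel activity and is induced through both receptors, had the lowest p of the 7. It stood at 8.80, 8.55, 8.88 and 8.68 in the wild type and at 8.61, 8.50, 8.55 and 8.46 in the mutants. The difference was −0.20 ± 0.11 (SE), with a 95% interval from −0.45 to 0.058 (adjusted p = 0.474). The ranges overlapped through wild-type replicate 2 and mutant replicate 1.

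At the exon level the 7 members held 109 probe sets, and limma called 2 of them (1.83%), where 2.67% of all probe sets were called, 1.21% as lower. Both were Sgk1 probe sets, and both fell; the share was thus below the table's for both directions together and above it for lower calls alone. Probe set 5463222 stood at 8.85, 8.55, 8.60 and 9.02 in the wild type and at 7.89, 6.96, 7.91 and 7.38 in the mutants, a fall of 1.22 ± 0.22 on the log2 scale (SE, adjusted p = 0.0250). Probe set 4545625 stood at 7.92, 7.15, 7.78 and 8.32 in the wild type and at 6.54, 6.39, 7.07 and 6.76 in the mutants, a fall of 1.10 ± 0.25 (adjusted p = 0.0483). In both, every mutant lay below every wild-type array. Genotypes did not overlap in 6 of the 109 probe sets and in 13.0% of all probe sets.

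The other 20 Sgk1 probe sets lay between −0.62 and 0.34. The brightest, 5378202, stood at 13.14 to 13.24 in the wild type and at 12.92 to 13.05 in the mutants, a difference of −0.19 ± 0.11 (SE, adjusted p = 0.381). To ask whether the 2 lower probe sets departed from their gene, each probe set was also tested after the mean of its gene's probe sets was subtracted, a test added after these values were seen. They then differed by −0.98 ± 0.20 (adjusted p = 0.0659) and −0.87 ± 0.22 (0.107) and were not called. By this measure 0 of the 109 probe sets were called, where 0.481% of all were. The exon-level calls were not stable. That of probe set 5463222 was lost without wild-type replicate 1 (adjusted p = 0.0672), wild-type replicate 2 (0.0573) or mutant replicate 4 (0.0642), and with the sample-code letter as a random block (0.0819). That of probe set 4545625 was kept without wild-type replicate 2 (0.0295) and lost in the other 7 runs, at up to 0.124.

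**Figure D4:**
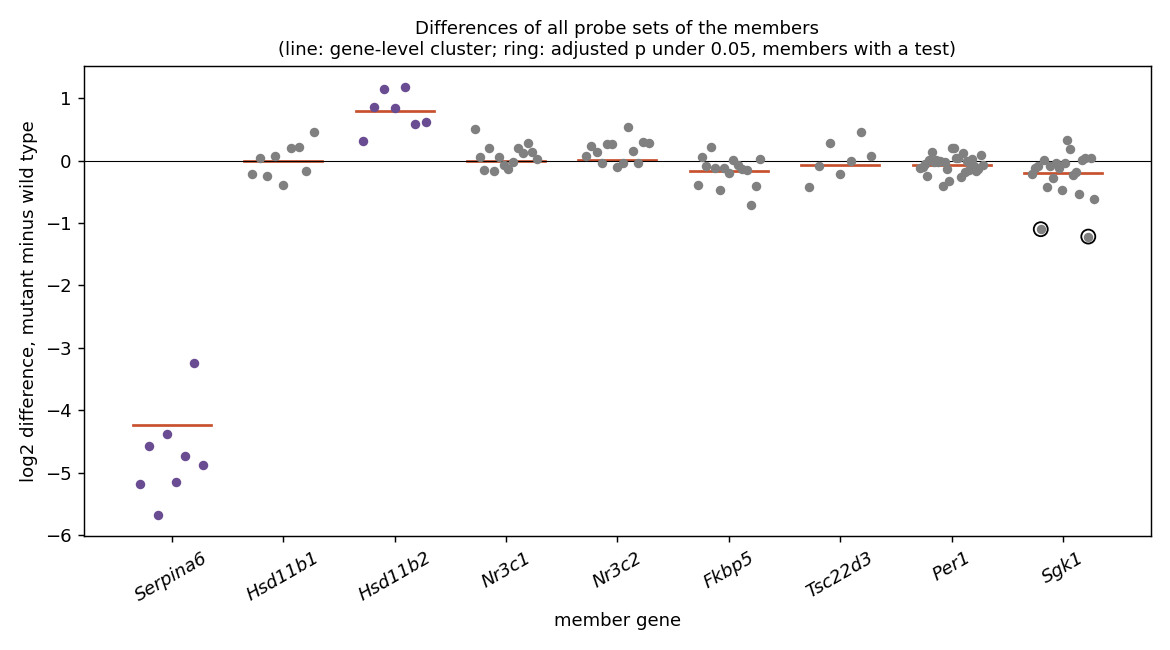
Log2 difference, mutant minus wild type, of the 124 probe sets of the 9 genes, with the gene-level difference as a line; rings mark adjusted p under 0.05 among the 7 tested genes. The Serpina6 probe sets lie between −5.68 and −3.25 and the Hsd11b2 probe sets between 0.31 and 1.18, while the 109 others lie between −1.22 and 0.53, with 2 ringed Sgk1 probe sets.

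Sgk1 has several starts, and the windows before them are shown because 2 of its probe sets were called and because the receptor binds such DNA. RefSeq windows (build GRCm38.p6) were matched for 6 of the 9 genes, with 14 starts in all, 6 of them of Sgk1. No window was matched for Serpina6, Hsd11b2 or Nr3c1, so these genes were not searched for any of the motifs below. The 250 bases before each start were searched on both strands for the receptor's palindrome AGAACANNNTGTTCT and for its hexamer TGTTCT, which is also each arm of the palindrome. The full palindrome was found before 1 of the 14 starts, where 3 of all 32851 windows held it (0.00913%). It lies at chr10:21993701-21993715, 189 bases before a start of Sgk1 and 965 bases before the next one. The hexamer was found before 4 of the 14 starts, 3 of Sgk1 and 1 of Tsc22d3, and in 16.1% of all windows. The 4 matched windows come from 2 genes, and Sgk1 supplies 6 of the 14 starts. Of 36 windows of the glucocorticoid response list, 0 held the palindrome and 5 the hexamer (13.9%). The core shared by WT1 and EGR sites, GCGTGGG, was found before 0 of the 14 starts, in 4.30% of all windows and in 4 of the 36 windows of that list (11.1%). A match is a description of letters and not a binding site. The windows below run 5′ to 3′ on the strand of the gene, with matches to the palindrome or the hexamer in capitals. The first is the Sgk1 window with the palindrome (chr10:21993640-21993889, plus strand), the second that of the next Sgk1 start (chr10:21994416-21994665, plus strand), which has no match, and the third that of Tsc22d3 with a hexamer (chrX:140600523-140600772, minus strand).
Sgk1 with palindrome: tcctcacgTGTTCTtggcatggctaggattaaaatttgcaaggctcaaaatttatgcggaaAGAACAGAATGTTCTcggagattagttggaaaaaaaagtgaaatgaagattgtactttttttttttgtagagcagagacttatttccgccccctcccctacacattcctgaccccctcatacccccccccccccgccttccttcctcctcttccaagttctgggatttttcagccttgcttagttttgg
Sgk1 next start: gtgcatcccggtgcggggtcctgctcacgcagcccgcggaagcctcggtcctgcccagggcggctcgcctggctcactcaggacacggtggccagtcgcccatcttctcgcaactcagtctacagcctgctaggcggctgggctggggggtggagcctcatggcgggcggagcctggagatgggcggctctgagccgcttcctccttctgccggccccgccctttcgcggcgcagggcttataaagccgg
Tsc22d3: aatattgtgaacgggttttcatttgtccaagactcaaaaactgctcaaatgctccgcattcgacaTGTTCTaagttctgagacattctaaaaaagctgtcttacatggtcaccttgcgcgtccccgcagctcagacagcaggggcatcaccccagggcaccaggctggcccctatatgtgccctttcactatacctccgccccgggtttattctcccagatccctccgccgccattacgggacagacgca

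The probe sets were not placed on the genome here, so which start the lower Sgk1 probe sets belong to is not given.

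A wider list of 36 genes known to respond to glucocorticoid was read at the gene level, with 34 measured. Limma called 1 of them higher and 0 lower, where 0.846% and 0.601% of all genes were called. The median difference was −0.038, against 0.032 for all genes, with 15 members higher and 19 lower. The called gene was Pdk4, a kinase that restrains pyruvate oxidation, which rose by 1.08 ± 0.17 on the log2 scale (SE, adjusted p = 0.0226), from 8.89 ± 0.24 to 9.97 ± 0.24 (SD, n = 4). That call was kept in 3 of 8 runs with each array left out in turn (adjusted p up to 0.0771), and it was lost with the letter block (0.0641). An unadjusted p under 0.05 was found for 12 of the 34, and for 16.6% of all genes. Klf15, a transcription factor that glucocorticoid induces, differed by −0.52 ± 0.11 (adjusted p = 0.0763). Lcn2, which is also a marker of tubular injury, differed by 0.57 ± 0.12 (0.0789) and the NF-kB inhibitor Nfkbia by 0.40 ± 0.11 (0.142).

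Genes of the mineralocorticoid response and sodium transport, 17 of 20 measured, gave 0 calls by limma. Over all genes 0.846% were called higher and 0.601% lower. An unadjusted p under 0.05 was found for 3 of the 17 and for 16.6% of all genes. The median difference of the 17 was −0.010. Next to Scnn1b and Scnn1a the lowest p was that of Ndrg2, an aldosterone-induced gene, which differed by −0.30 ± 0.12 (SE, adjusted p = 0.299). The receptor's machinery gave no call either. Of 13 measured chaperones and 13 measured coregulators 0 were called by limma, beside the same shares of all genes. An unadjusted p under 0.05 was reached by 0 of them, and by 16.6% of all genes. The inducible chaperone Hspa1a differed by −0.62 ± 0.33 (adjusted p = 0.436), with a wide spread in both genotypes. Its co-chaperones Bag1 and Dnajb1 differed by 0.23 and 0.26 (0.439 and 0.507). Among coregulators the mediator subunit Med1 differed by 0.24 ± 0.11 (0.359) and the deacetylases Hdac3 and Hdac2 by 0.21 and 0.23 (0.405 and 0.412).

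**Figure D5:**
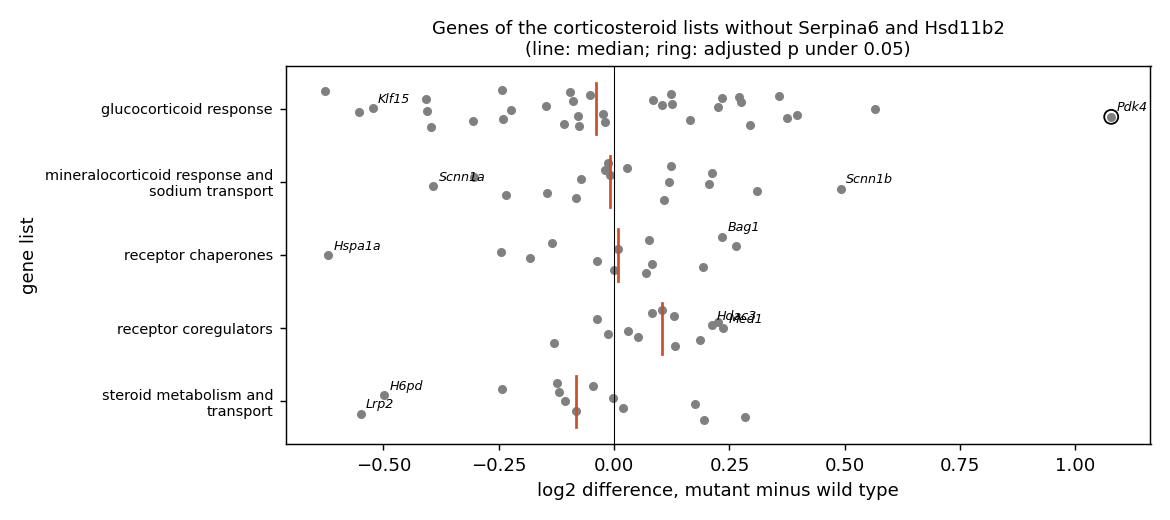
Log2 difference, mutant minus wild type, of the measured genes of 5 lists around corticosteroid action, without Serpina6 and Hsd11b2; lines mark the median of the genes plotted and rings an adjusted p under 0.05. The list medians lie near 0, and Pdk4, at 1.08, is the ringed gene.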

How the data were processed

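The authors deposited log2 values made with RMA (background correction, quantile normalization and probe summary) in Partek with build mm9 named, per the submitters' processing notes. No tool version is stated there, and the log base was inferred from the range, 3.57 to 14.9. RMA compresses dim signals. Over 17166 genes compared, 21.1% of gene-level profiles equalled the mean of their named probe sets within 0.001, Hsd11b1 and Hsd11b2 among them, so the tables are not independent. Precision is limited by the number of arrays.

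Symbols came from the platform annotation, updated through RefSeq (GRCm38.p6); 20723 clusters had 1 symbol, 1333 several and 71567 none. Each table was fitted with limma 3.58.1 in R 4.3.3 (mutant minus wild type, two-sided, Benjamini-Hochberg over all rows, threshold 0.05). Intervals are 95%. The labels do not give litters, so whether the embryos were independent is not known. The p-values measure the spread between these samples. Members and 16 lists were chosen with earlier results of these data known. The text names the members, every called gene of a list described and up to 3 more of smallest p; marker lists are given mainly as counts. Genes of the lists without a named cluster were not analysed here. On simulated data the gene-level fit (93623 rows) called 34% of rows changed 2-fold and 84% of those changed 4-fold, and the exon-level fit (375483 rows) 22% and 68%. Alternatives were array weights, other moderation, normalization, filters, blocks and leaving out each array.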

Additional observations from a re-analysis of the deposited data

Results flagged for a closer look

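In 1 of 54 groups of 4 arrays, a single array stood far from the other 3. In Serpina6 probe set 4695676, mutant replicate 1 had a log2 signal of 6.38, while the other 3 mutants lay at 4.53 to 4.78. The gap took 0.864 of the range of the group. Chance flags about 1 group in 20, a larger share than the 1 of 54 found here. This array was also the highest mutant in all 8 Serpina6 probe sets and has a sample-code letter of its own among the mutants; what the letter marks was not tested.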

How the results depend on the processing

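Serpina6 ran from −4.73 to −3.92 and Hsd11b2 from 0.76 to 0.83 under 17 alternatives each. Both were chosen for their difference and had no overlap between the genotypes, so leaving out 1 array could not turn their sign. Some alternatives change only the test and leave the difference as it is, so nothing is read from the kept direction. Of the 7 tested members 0 were called under any of 15 alternatives. The number of called clusters, 774, became 1311 with array weights, 258 with the sample-code letter as a random block, 1199 with clusters at or above the 50th percentile, 1409 with 1-symbol clusters and 268 to 758 without 1 array. The 10035 called probe sets became 16875 with trend and robust options, 15378 with array weights, 2793 with the letter block and 3513 to 9913 without 1 array. Called member probe sets, 2, became 4 with trend and robust options, 1 with quantile normalization again, 1 with array weights, 0 with the letter block and 0 to 1 without 1 array. Probe sets called after subtraction of the gene mean, 0 in the members, became 1 with trend and robust options and 0 to 2 without 1 array; over the table they numbered 898 and 140 to 1743 without 1 array. The cause was not tested.

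Signs turned where differences were near 0. Hsd11b1 became 0.032 with quantile normalization again, 0.0022 with array weights, 0.012 with the letter block and −0.061 to 0.094 without 1 array. Nr3c1 became 0.0015 with quantile normalization again, 0.014 with the letter block, 0.072 with the mean of probe sets and −0.053 to 0.057 without 1 array. Nr3c2 ran from −0.035 to 0.052 without 1 array and became 0.16 with the mean of probe sets. Tsc22d3 became 0.013 with the mean of probe sets and −0.27 with the mean of its clusters.

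Replicate numbers share only a number: deviations of same-numbered arrays correlated at −0.0048, 0.069, 0.26 and 0.20, and 4 of 8 arrays correlated best with their own number. With a replicate block the called clusters numbered 185, the called probe sets 7859 and those called after subtraction 157. The lists' called genes numbered 18, a count that includes Serpina6 and Hsd11b2, which were chosen for their difference. This count became 17 without wild-type replicate 4 and 22 with trend and robust options. Dim genes such as Hsd11b1 are limited by signal over background.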
